A study of Homo sapiens with 6 samples.

Results

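The 10 genes described here, COL2A1, COL9A2, COL9A3, COL27A1, ACAN, MATN4, WWP2, PAPSS2, CHST11 and XYLT1, are targets of the transcription factor SOX9 in cartilage cells. They were taken as the probe sets whose annotated symbol is exactly one of these names, which gave 27 of the 54675 probe sets on the Affymetrix Human Genome U133 Plus 2.0 array. The cells were VCaP, a human prostate cancer line that carries the TMPRSS2/ERG gene fusion and, per the design text, has high basal SOX9. They were grown in DMEM with fetal bovine serum and transfected with SOX9 siRNA A, SOX9 siRNA B or a non-targeting control siRNA, and total RNA was collected 72 h later. Each of the 3 groups had 2 arrays, called biological duplicates in the design text, so every group is a transient transfection of a single cell line in duplicate.

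SOX9 is the factor that commits mesenchymal cells to the cartilage lineage and keeps chondrocytes differentiated. With SOX5 and SOX6 it binds paired sites in the enhancers of cartilage matrix genes and drives type II collagen, type IX and type XI collagen, aggrecan and matrilins. It also acts on genes for the enzymes that build the sulfated chondroitin chains of aggrecan. SOX9 is expressed in prostate epithelium as well, and the series title places this knockdown in work on SOX9 and WNT signalling in prostate cancer. The comparison of SOX9 siRNA with control siRNA is read here for the cartilage targets.

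Promoters of 7 of the 10 genes were found in the RefSeq table of GRCh38.p14, each window running from 250 bases before to 50 bases after a gene start. They were searched on both strands for AACAAT and ACAAAG, a pair of short matches to the core bound by SOX proteins. ACAAAG occurs in 16.1% of the 35116 promoters in the table, AACAAT in 10.1% and at least 1 of them in 23.9%. Among the members, 1 gene held either, COL9A2, with ACAAAG starting 211 bases before its gene start. The shares count windows and the member count is of genes, and MATN4 and WWP2 each had more than 1 window. The COL9A2 promoter (chr1:40317237-40317536, minus strand) and the COL27A1 promoter (chr9:114155287-114155586, plus strand) are printed because these genes had the largest differences between both siRNAs and control siRNA in each direction, and the capitals mark the ACAAAG match.
COL9A2: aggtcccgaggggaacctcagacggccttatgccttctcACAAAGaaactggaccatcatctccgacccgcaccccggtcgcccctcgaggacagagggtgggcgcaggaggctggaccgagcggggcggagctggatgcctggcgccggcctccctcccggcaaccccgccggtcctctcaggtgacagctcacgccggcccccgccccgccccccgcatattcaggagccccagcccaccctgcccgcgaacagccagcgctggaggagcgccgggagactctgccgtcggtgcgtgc
COL27A1: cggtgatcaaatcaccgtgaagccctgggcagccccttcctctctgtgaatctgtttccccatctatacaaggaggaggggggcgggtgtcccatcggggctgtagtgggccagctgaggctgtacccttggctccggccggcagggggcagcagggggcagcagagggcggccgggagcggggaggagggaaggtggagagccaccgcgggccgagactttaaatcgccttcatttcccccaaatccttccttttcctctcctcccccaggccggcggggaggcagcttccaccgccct
The COL27A1 window held neither motif. A match is only a description of these letters, and no match in this window leaves enhancers elsewhere unread.

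SOX9 itself was lower on all 4 siRNA arrays than on both control arrays in each of its 2 probe sets. In probe set 202936_s_at its signal was 860.8 and 585.8 in siRNA A cells, 569.8 and 292.6 in siRNA B cells and 1557.9 and 1269.6 in control cells. Fold changes are differences of group means of log2(signal + 16), tested in limma over 27307 probe sets, and a call is a p under 0.05 after Benjamini-Hochberg adjustment over all of them. For SOX9 the log2 fold change for both siRNAs against control was -1.36 (SE 0.29), which did not pass (limma adjusted p = 0.328) and passed when the replicate number was a block in the fit (limma adjusted p = 3.25e-06). The other probe set, 202935_s_at, gave -1.02 (limma adjusted p = 0.571, and 0.00141 with the block). Its signal was 1107.9 and 672.6 in siRNA A cells, 609.3 and 333.5 in siRNA B cells and 1469.3 and 1126.2 in control cells. With siRNA A the log2 fold changes of 202936_s_at and 202935_s_at were -0.97 and -0.57. Neither passed without the block, and with it only 202936_s_at did (limma adjusted p = 0.033 against 0.545). With siRNA B the fold changes were -1.74 and -1.48 (limma adjusted p = 0.0858 and 0.141), and both passed with the block. In all 3 groups, control included, replicate 2 had the lower SOX9 signal. The replicate 2 arrays of both siRNAs also stood further from the control arrays over all tested probe sets. Their correlations with the 2 control arrays were 0.961 and 0.968 for siRNA A and 0.943 and 0.949 for siRNA B. For the replicate 1 arrays they were 0.985 and 0.987 for siRNA A and 0.981 and 0.98 for siRNA B. Between the 2 arrays of a group the correlation was 0.972 for siRNA A, 0.964 for siRNA B and 0.986 for control. The block changes calls in this report and is therefore given beside the results it changes.

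Background was set on each array as the 95th percentile of 141 probe sets for olfactory receptors and keratin-associated proteins, genes of other tissues. It lay at a signal of 22.8 and 23.8 on the siRNA A arrays, 22.5 and 27.9 on the siRNA B arrays and 28.8 and 28.0 on the control arrays. On single arrays, 45.6% (control replicate 1) to 50.1% (siRNA A replicate 1) of all probe sets were above it. Shares of all probe sets above it on both arrays of a group, or on all 6, were not computed. Of the 27 member probe sets, 8 were above it on all 6 arrays, from 5 genes: COL2A1, COL9A2, WWP2, PAPSS2 and XYLT1. A probe set counted as above background in a group when both arrays were, and this held for 10 probe sets with siRNA A, 9 with siRNA B and 12 with control siRNA. In at least 1 group it held for 14 probe sets, from 9 of the 10 genes. ACAN was the gene with no probe set above background in any group.

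The other 13 probe sets were above background in no group, with signals between 0.7 and 37.9. They included the second probe sets of COL2A1 (217404_s_at), COL9A2 (232542_at) and XYLT1 (232574_at), 3 of the 5 for COL27A1, all 4 for ACAN, 2 of the 3 for CHST11 and 1 of the 4 for WWP2. Of all 27, 14 had a mean signal at or above the median of all probe sets and were tested, 13 of them above background in some group, and the 13 that did not pass have no test here.

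**Figure D1:**
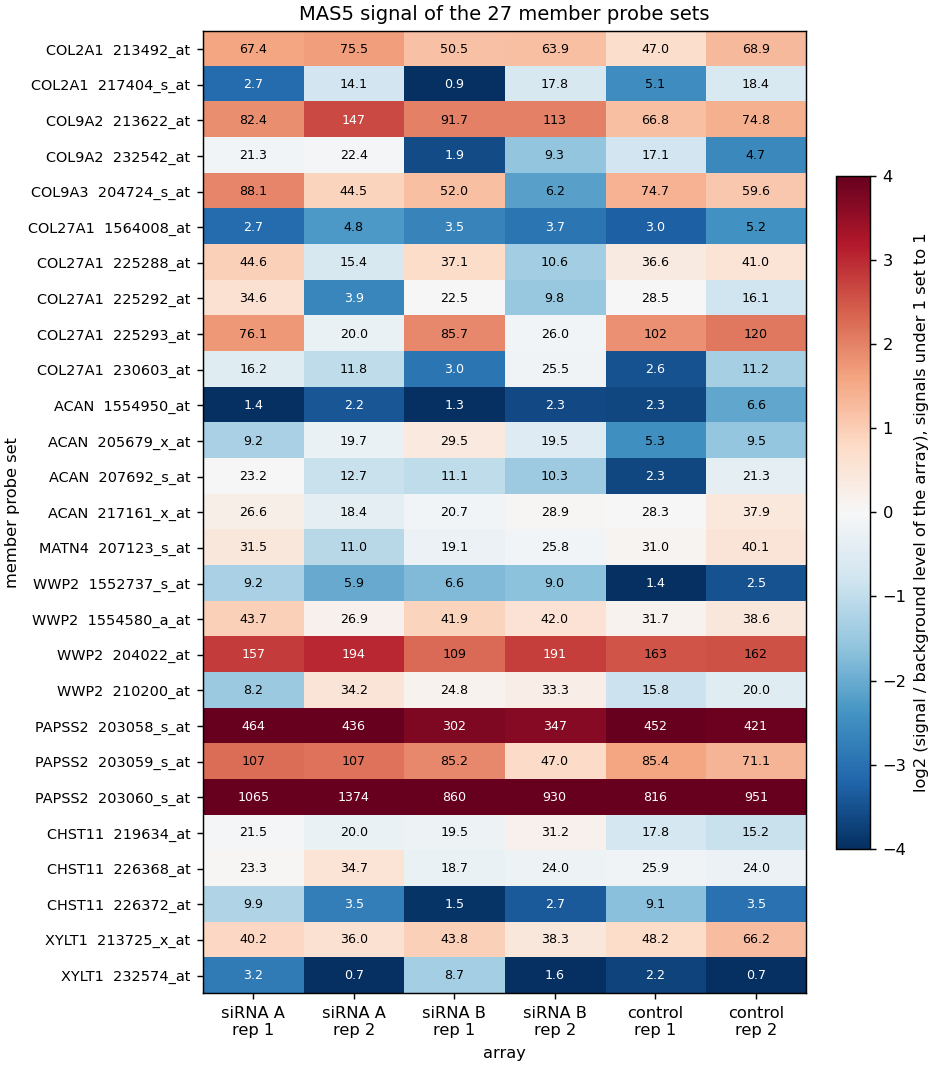
Signal of each of the 27 member probe sets (rows) on each array (columns), printed in the cells and coloured by the log2 ratio of the signal to that array's background level, with signals under 1 set to 1 for the colour. The rows of PAPSS2, WWP2 204022_at, COL9A2 213622_at and COL2A1 213492_at are above background throughout, and COL27A1 225293_at falls below it on replicate 2 of both siRNAs.

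No member probe set passed the test for both siRNAs against control siRNA. Across all tested probe sets 0.00366% passed, 1 of 27307. At an unadjusted p below 0.05 it was 1 of 14 member probe sets against 6.9% of all those tested. Members' log2 fold changes were positive in 5 and negative in 9, with a median of -0.11, and over all tested probe sets 46.2% were positive and the median was -0.03. With the replicate block 1 member probe set passed, the COL27A1 one described below, where 3.01% of all tested did. A p above the threshold does not show that a gene was unaffected: the 95% intervals of the 14 fold changes were between 0.97 and 1.61 wide on the log2 scale. Fewer cells expressing a gene and less RNA per cell cannot be told apart in these bulk samples.

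**Figure D2:**
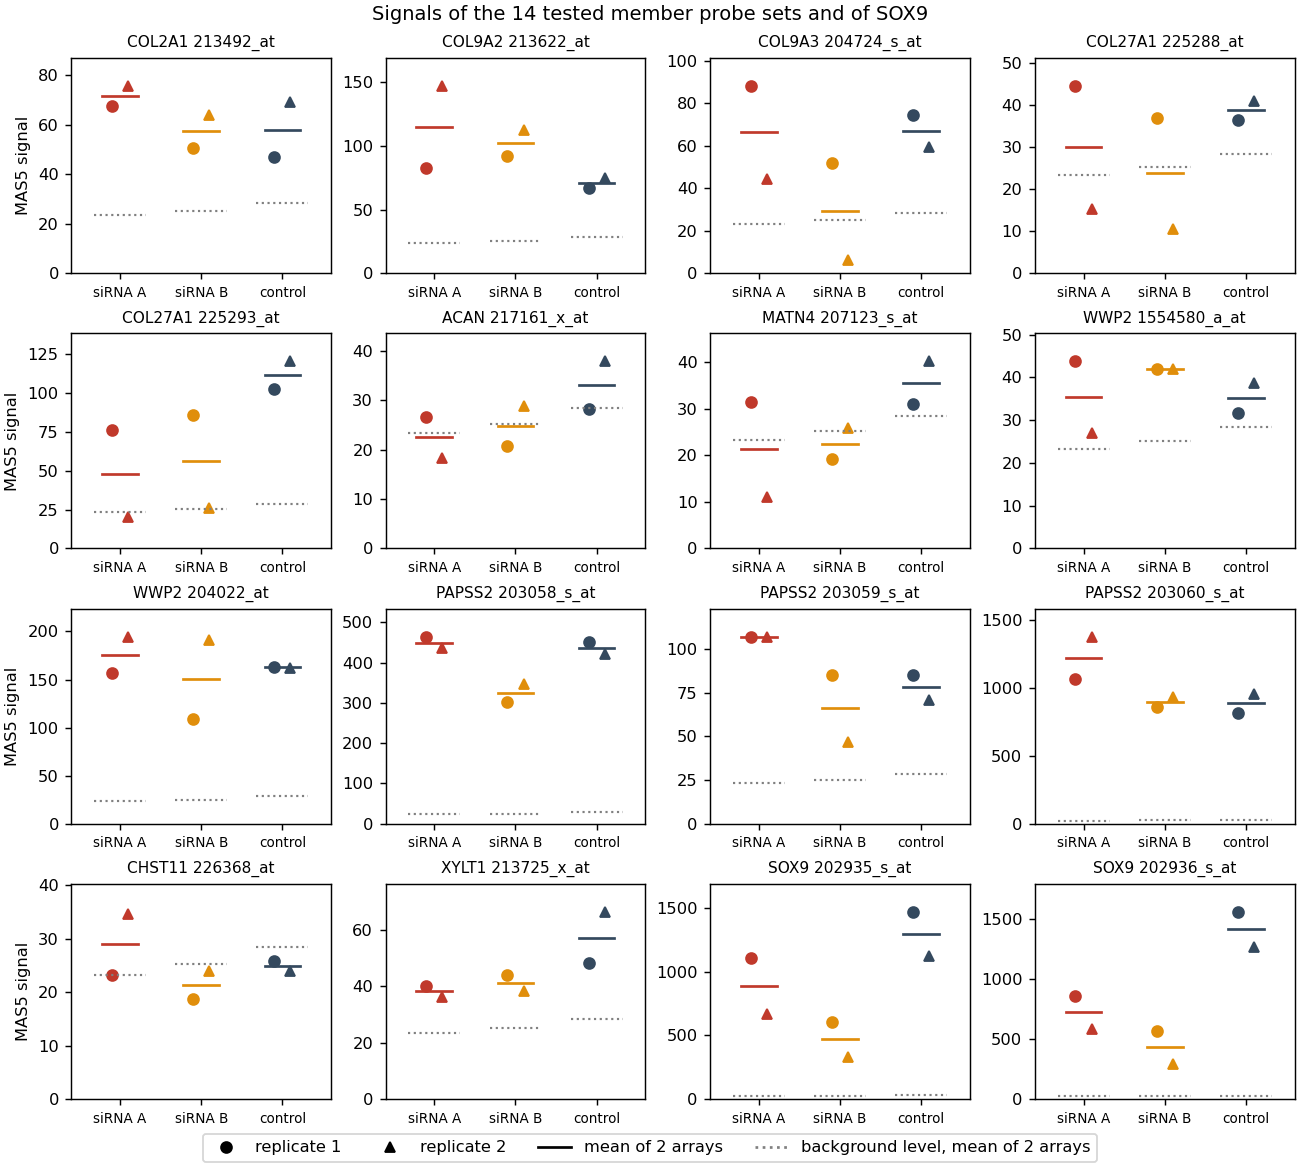
MAS5 signal (vertical axes, each starting at 0 with its own range) of the 14 tested member probe sets and the 2 of SOX9 in the siRNA A, siRNA B and control arrays. Circles are replicate 1, triangles replicate 2, bars the mean of 2 arrays and dotted lines the background level. In COL27A1 225293_at the replicate 2 triangles of both siRNAs, at 20.0 and 26.0, lie far under the control arrays at 102.1 and 120.1.

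COL2A1 encodes the chain of type II collagen, the main fibril of cartilage and the classic SOX9 target. Probe set 213492_at had signals of 67.4 and 75.5 in siRNA A cells, 50.5 and 63.9 in siRNA B cells and 47.0 and 68.9 in control cells. All 6 values were above background. Each siRNA group overlapped the control group, and both siRNA A arrays were above both siRNA B arrays. Its log2 fold change for both siRNAs was 0.13 (95% interval -0.39 to 0.64, limma adjusted p = 0.951). The siRNA A value was 0.26 and the siRNA B value 0.00 on the same scale. Without control replicate 1 the value for both siRNAs was -0.09, so its sign is not settled.

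COL9A2 encodes a chain of type IX collagen, which coats the type II fibrils and links them to other matrix proteins. Its signal was 82.4 and 147.0 in siRNA A cells, 91.7 and 112.6 in siRNA B cells and 66.8 and 74.8 in control cells (213622_at). Of the 14 tested member probe sets it alone had all 4 siRNA arrays above both control arrays. Of all tested probe sets 4.75% had that order. The untested CHST11 219634_at and WWP2 1552737_s_at also had it, and were above background in no group. The log2 fold change of COL9A2 was 0.49 (SE 0.25, 95% interval -0.05 to 1.04, limma adjusted p = 0.754). It was 0.55 with siRNA A and 0.44 with siRNA B. Over the alternatives run, the fold change lay between 0.25 and 0.74 and never passed.

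COL9A3 encodes another chain of the same type IX collagen. In 204724_s_at the signal was 88.1 and 44.5 in siRNA A cells, 52.0 and 6.2 in siRNA B cells and 74.7 and 59.6 in control cells. The siRNA B arrays were both below the control arrays, and the siRNA A arrays lay on either side of them. The log2 fold change was -1.09 with siRNA B (SE 0.43, limma adjusted p = 0.389) and -0.06 with siRNA A (limma adjusted p = 1). With the replicate block the siRNA B difference passed (limma adjusted p = 0.00474), as did the difference between siRNA A and siRNA B, 1.03 (limma adjusted p = 0.597 without the block and 0.016 with it). With the block and median centring together the siRNA B difference passed (limma adjusted p = 0.0376) and the difference between the siRNAs did not (limma adjusted p = 0.0564). These values rested on siRNA B replicate 2, whose signal of 6.2 was below that array's background of 27.9, so its exact size is not measured. Without that array, with siRNA B as a single array, the siRNA B fold change was -0.28. COL9A2 and COL9A3, chains of one protein, thus had fold changes of 0.44 and -1.09 with siRNA B, and the difference between the genes was not tested.

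COL27A1 encodes a fibrillar collagen of the cartilage of the growing skeleton. The brightest of its 5 probe sets, 225293_at, had signals of 76.1 and 20.0 in siRNA A cells, 85.7 and 26.0 in siRNA B cells and 102.1 and 120.1 in control cells. All 4 siRNA arrays were below both control arrays, and the replicate 2 arrays of both siRNAs were below background. Its log2 fold change was -1.05 for both siRNAs (SE 0.38, 95% interval -1.85 to -0.24), with an unadjusted p of 0.0142 and a limma adjusted p of 0.636. With siRNA A it was -1.14 (limma adjusted p = 1) and with siRNA B -0.96 (limma adjusted p = 0.465).

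With the replicate block the COL27A1 difference passed for both siRNAs (limma adjusted p = 0.000958), for siRNA A (0.00496) and for siRNA B (0.0138), each as an adjusted p from limma. Replicate 2 minus replicate 1 was -1.36 for siRNA A, -1.28 for siRNA B and 0.21 for control on the log2(signal + 16) scale. The block takes this change as equal in all groups, and here it was not. What made the p smaller with the block was not tested. With the block and median centring together the COL27A1 difference passed for both siRNAs (limma adjusted p = 0.0498) and not for siRNA A (0.142) or siRNA B (0.0775). Leaving out replicate 2 of both siRNAs, the arrays below background, joined the other siRNA arrays as 1 group. The fold change was then -0.39 (limma adjusted p = 0.958). The other COL27A1 probe set above background in the control group, 225288_at, had 44.6 and 15.4 in siRNA A cells, 37.1 and 10.6 in siRNA B cells and 36.6 and 41.0 in control cells. There too the replicate 2 arrays of both siRNAs were the low ones, and the fold change for both siRNAs was -0.44 (limma adjusted p = 0.858, and 0.528 with the block). Probe set 225292_at had 34.6 and 3.9 in siRNA A cells, 22.5 and 9.8 in siRNA B cells and 28.5 and 16.1 in control cells, near background and not tested.

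**Figure D3:**
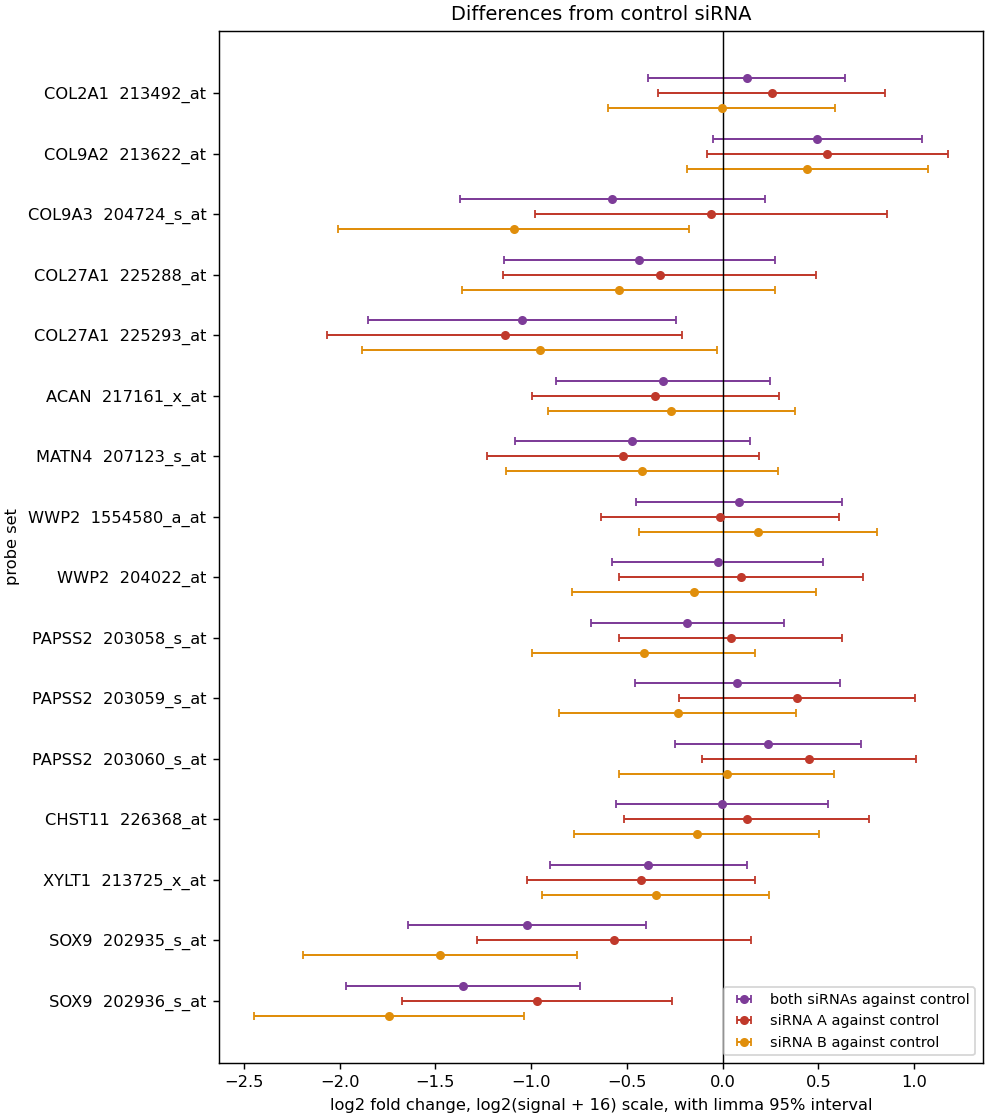
Log2 fold change with its limma 95% interval (horizontal axis, log2(signal + 16) scale) of the 14 tested member probe sets and the 2 of SOX9, for both siRNAs, siRNA A and siRNA B against control siRNA. The intervals of most members include 0; COL27A1 225293_at, at -1.05 for both siRNAs, and COL9A3, at -1.09 for siRNA B, do not, although neither passed after adjustment.

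ACAN encodes aggrecan, the large proteoglycan whose chondroitin sulfate chains hold water in cartilage. Its brightest probe set, 217161_x_at, had signals of 26.6 and 18.4 in siRNA A cells, 20.7 and 28.9 in siRNA B cells and 28.3 and 37.9 in control cells. In each group 1 of the 2 arrays was above background, so the fold change of -0.31 (limma adjusted p = 0.877) rests on values at background. The other 3 ACAN probe sets had signals between 1.3 and 29.5.

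MATN4 encodes matrilin 4, an adaptor protein of the matrix. Its single probe set, 207123_s_at, had 31.5 and 11.0 in siRNA A cells, 19.1 and 25.8 in siRNA B cells and 31.0 and 40.1 in control cells. Both control arrays were above background, 1 siRNA A array was, and neither siRNA B array was. The mean signal of the siRNA B arrays was therefore at least 1.41-fold lower than that of the control arrays (limma adjusted p = 0.721). The 95% interval of the siRNA B log2 fold change was -1.13 to 0.29 and includes 0. Such a bound sets the mean of the brighter group against the mean, over the dim arrays, of the higher of signal and background level, with means taken over log2 signals and no offset. It describes the signals of these arrays and carries no sampling error. The same holds for every fold given below as at least a value. For both siRNAs the log2 fold change was -0.47 (SE 0.29, limma adjusted p = 0.794).

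WWP2 encodes a ubiquitin ligase of the NEDD4 family, and its gene is the host of the cartilage microRNA miR-140. In 204022_at the signal was 157.0 and 194.4 in siRNA A cells, 109.3 and 191.3 in siRNA B cells and 163.2 and 162.0 in control cells. The siRNA arrays lay on both sides of the control arrays, and the fold change for both siRNAs was -0.03 (95% interval -0.58 to 0.53, limma adjusted p = 0.992). A second probe set, 1554580_a_at, had 43.7 and 26.9 in siRNA A cells, 41.9 and 42.0 in siRNA B cells and 31.7 and 38.6 in control cells, and gave 0.09 (limma adjusted p = 0.971). Probe set 210200_at had 8.2 and 34.2 in siRNA A cells, 24.8 and 33.3 in siRNA B cells and 15.8 and 20.0 in control cells. It was above background with siRNA B alone, was not tested, and its siRNA B level was at least 1.01-fold higher than in control.

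PAPSS2 encodes the enzyme that makes the sulfate donor used to sulfate chondroitin, and its loss causes a skeletal dysplasia. All 3 of its probe sets were above background on every array. In 203060_s_at the signal was 1065.1 and 1373.5 in siRNA A cells, 859.6 and 929.8 in siRNA B cells and 816.0 and 951.4 in control cells. In 203058_s_at it was 464.2 and 435.8 in siRNA A cells, 301.8 and 346.8 in siRNA B cells and 451.9 and 420.7 in control cells. In 203059_s_at it was 106.7 and 107.1 in siRNA A cells, 85.2 and 47.0 in siRNA B cells and 85.4 and 71.1 in control cells.

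The 3 PAPSS2 probe sets did not share an order. Both siRNA A arrays were above both control arrays in 203060_s_at and 203059_s_at, and both siRNA B arrays were below both control arrays in 203058_s_at. The log2 fold changes for both siRNAs were 0.24, -0.18 and 0.08 for 203060_s_at, 203058_s_at and 203059_s_at (limma adjusted p between 0.897 and 0.974). Between siRNA A and siRNA B all 3 differences were positive, at 0.43, 0.46 and 0.62 in the same order. The last had an unadjusted p of 0.0485 and a limma adjusted p of 0.664.

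CHST11 encodes a sulfotransferase of chondroitin that the growth plate needs. Its brightest probe set, 226368_at, had 23.3 and 34.7 in siRNA A cells, 18.7 and 24.0 in siRNA B cells and 25.9 and 24.0 in control cells. These values lie at background, above it on both arrays with siRNA A and on neither array with siRNA B or control. The fold change for both siRNAs was -0.01 (limma adjusted p = 0.998).

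XYLT1 encodes the xylosyltransferase that adds the first sugar of a chondroitin or heparan sulfate chain to a core protein. In 213725_x_at the signal was 40.2 and 36.0 in siRNA A cells, 43.8 and 38.3 in siRNA B cells and 48.2 and 66.2 in control cells. All 4 siRNA arrays were below both control arrays, as in COL27A1 225293_at, which makes 2 of 14 member probe sets where 10.9% of all those tested had that order. The log2 fold change was -0.39 (SE 0.24, 95% interval -0.90 to 0.13, limma adjusted p = 0.8, and 0.562 with the block). The suffix x_at marks probe sets in which some probes may bind other transcripts.

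For siRNA A against control siRNA, 0 of 14 member probe sets passed in limma, where 0.00732% of all tested did, and 1 had an unadjusted p below 0.05, where 3.86% did. With the block 1 passed, COL27A1 225293_at, where 1.3% of all did. Members' fold changes were positive in 7 and negative in 7, with a median of 0.02 against -0.04 over all tested probe sets. Of all tested probe sets 44.9% were positive. The arrays did not overlap for 3 higher probe sets (COL9A2 213622_at and PAPSS2 203060_s_at and 203059_s_at), where 14.4% of all tested had that order, and for 3 lower ones (COL27A1 225293_at, ACAN 217161_x_at and XYLT1 213725_x_at), where 22.5% did.

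For siRNA B against control siRNA, 0 of 14 passed in limma, where 0.0623% of all tested did, and 2 had an unadjusted p below 0.05, COL9A3 and COL27A1 225293_at, where 10.3% of all did. With the block the same 2 passed, where 5.6% of all did. Members' fold changes were positive in 3 and negative in 11, with a median of -0.25 against -0.01 over all tested probe sets. Of all tested probe sets 48.6% were positive. The 14 member probe sets come from 10 genes and are not independent of each other. The arrays did not overlap for 2 higher probe sets, COL9A2 213622_at and WWP2 1554580_a_at (13.5% of all tested), and for 5 lower ones, in COL9A3, COL27A1, MATN4, PAPSS2 and XYLT1 (24.8% of all tested). The 3 comparisons with control siRNA share the control arrays.

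Between siRNA A and siRNA B, 0 of 14 member probe sets passed in limma, where 0.0476% of all tested did, and 2 had an unadjusted p below 0.05, COL9A3 and PAPSS2 203059_s_at, where 7.48% did. With the block COL9A3 passed, where 2.6% of all did. The median difference was 0.23, against -0.03 over all tested probe sets, with 9 of 14 positive where 46% of all were.

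The other genes of the cartilage programme were read from 8 lists, 1 probe set per gene. Beside SOX9, 86 of their genes were tested. In limma without the block 0 of the 86 passed for both siRNAs, for siRNA A, for siRNA B or between the siRNAs. At an unadjusted p below 0.05 there were 16 for both siRNAs, 3 for siRNA A, 16 for siRNA B and 5 between them, and with the replicate block 9, 4, 15 and 6 passed in the same order. Over all tested probe sets the shares in that order were 6.9%, 3.86%, 10.3% and 7.48% at an unadjusted p below 0.05, and 3.01%, 1.3%, 5.6% and 2.6% with the block. The lists were chosen with earlier results of these data known, so the list counts and these shares are not a fair comparison. The part of that choice in the counts was not tested. The counts by list that follow are for both siRNAs against control siRNA, where 3.01% of all tested probe sets passed with the block. The 4 genes with the smallest unadjusted p of each list were open to naming, so the named genes were selected on this comparison.

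Of 14 transcription factors of the chondrocyte, 8 were tested, 3 with a positive and 5 with a negative fold change (median -0.27). The 3 with an unadjusted p below 0.05 were SOX9, ARID5A and RUNX2, and SOX9 alone passed with the block. RUNX2, the factor of hypertrophic chondrocytes and bone, had signals of 361.8 and 208.4 in siRNA A cells, 236.4 and 129.3 in siRNA B cells and 406.9 and 325.7 in control cells. Its fold change was -0.69 (limma adjusted p = 0.706, and 0.101 with the block). ARID5A was at -0.57, with all 4 siRNA arrays below the control arrays.

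Of 12 other cartilage collagens, 5 were tested and all 5 fold changes were negative (median -0.19), with 1 at an unadjusted p below 0.05 and 0 called with the block. That was COL16A1, a collagen associated with fibrils, at 82.3 and 55.2 in siRNA A cells, 51.8 and 49.5 in siRNA B cells and 95.6 and 99.5 in control cells. Its siRNA arrays were all below the control arrays, with a fold change of -0.60 (limma adjusted p = 0.654, and 0.161 with the block). COL9A1, the partner chain of COL9A2 and COL9A3, was above background on no array, as were COL11A1 and COL3A1. COL1A1 and COL3A1 are also counted below as markers of fibroblasts and stroma. COL1A1 was lower than control on both siRNA A arrays and higher on both siRNA B arrays. The fold changes of COL1A1, COL6A1 and COL11A2 for both siRNAs changed sign under some alternatives.

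Of 25 other cartilage matrix proteins, 17 were above background on no array, among them COMP, HAPLN1, MATN3, CNMD, EPYC and CHAD. The 6 tested had 3 positive and 3 negative fold changes (median -0.11), and 0 passed with the block. MATN2, a relative of MATN4, had 32.7 and 59.1 in siRNA A cells, 61.3 and 83.2 in siRNA B cells and 27.5 and 38.7 in control cells, and its fold change of 0.58 did not pass (limma adjusted p = 0.716, and 0.233 with the block). BGN, the small proteoglycan biglycan, was above background in the control group alone, and was at least 1.46-fold lower with siRNA A and at least 1.36-fold lower with siRNA B (limma adjusted p = 0.722 for both siRNAs).

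Of 29 chondroitin sulfate enzymes and transporters, 24 were tested, with 11 positive and 13 negative fold changes (median -0.02). With the block 2 passed, CHST12 and SLC35D1. CHST12, a chondroitin sulfotransferase related to CHST11, had 219.2 and 100.2 in siRNA A cells, 137.9 and 38.3 in siRNA B cells and 234.1 and 228.3 in control cells. Its siRNA arrays were all below the control arrays and its fold change was -1.01 (SE 0.37, limma adjusted p = 0.636, and 0.00141 with the block). That value was -0.63 without siRNA B replicate 2 and -0.38 without replicate 2 of both siRNAs.

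SLC35D1, a transporter of nucleotide sugars for chondroitin synthesis, had 188.3 and 336.0 in siRNA A cells, 238.8 and 680.8 in siRNA B cells and 174.2 and 181.3 in control cells. All 4 siRNA arrays were above the control arrays, and the fold change was 0.80 (limma adjusted p = 0.706, 0.0365 with the block and 0.0539 with the block and median centring). It was 0.43 without siRNA B replicate 2 and 0.24 without replicate 2 of both siRNAs. CHSY1, a chondroitin synthase, had 1941.0 and 1706.5 in siRNA A cells, 796.0 and 688.6 in siRNA B cells and 1900.8 and 1593.1 in control cells. Here the siRNA A arrays lay with the control arrays and the siRNA B arrays were apart. The siRNA B fold change was -1.22 (SE 0.25, limma adjusted p = 0.106, and 0.000194 with the block), and siRNA A minus siRNA B was 1.28 (limma adjusted p = 0.0953, and 0.000167 with the block).

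Of 24 genes for folding, processing and crosslinking collagen, 21 were tested, with 10 positive and 11 negative fold changes (median -0.10). With the block 4 passed, SEC23A with a positive fold change and P4HA1, PLOD1 and PLOD2 with negative ones. P4HA1, the catalytic chain of prolyl hydroxylase, had 3029.4 and 540.6 in siRNA A cells, 2492.7 and 585.6 in siRNA B cells and 3554.3 and 2762.0 in control cells. As in COL27A1, the replicate 2 arrays of both siRNAs were the low ones. The fold change was -1.32 (limma adjusted p = 0.697, and 2.75e-07 with the block), -0.70 without siRNA A replicate 2, -0.80 without siRNA B replicate 2, -0.19 without replicate 2 of both and -2.44 without replicate 1 of both.

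PLOD1 and PLOD2, lysyl hydroxylases of collagen, had fold changes of -0.77 and -0.86. PLOD2 had 2887.2 and 373.7 in siRNA A cells, 2094.8 and 755.7 in siRNA B cells and 1918.2 and 2295.0 in control cells, so its replicate 2 siRNA arrays were again low and its groups overlapped. SEC23A, a coat protein of the vesicles that carry procollagen, had 1221.7 and 1451.8 in siRNA A cells, 1247.0 and 2832.7 in siRNA B cells and 1142.9 and 688.5 in control cells, a fold change of 0.82 (limma adjusted p = 0.641, 0.0112 with the block and 0.0615 with the block and median centring). That value was 0.46 without control replicate 2 and 0.53 without siRNA B replicate 2. SERPINH1, the collagen chaperone, was above background with siRNA A and control and not with siRNA B, where it was at least 2.25-fold lower than in control (limma adjusted p = 0.136, and 0.00134 with the block).

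Of the 8 other NEDD4 family ligases, 7 were tested, 4 with positive and 3 with negative fold changes (median 0.02), and 0 had an unadjusted p below 0.05 or passed with the block. WWP1, the closest relative of WWP2, was at -0.12 (limma adjusted p = 0.945).

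Of 13 enzymes and inhibitors of matrix breakdown, 6 were tested, with 2 positive and 4 negative fold changes (median -0.12). With the block 2 passed, ADAMTS1 and TIMP2. ADAMTS1, a protease that cuts aggrecan and versican, had 580.9 and 1228.6 in siRNA A cells, 729.5 and 1507.8 in siRNA B cells and 297.6 and 453.3 in control cells. All siRNA arrays were above the control arrays, with a fold change of 1.32 (SE 0.34, limma adjusted p = 0.506, and 8.36e-06 with the block), and 0.80 without replicate 2 of both siRNAs. TIMP2, an inhibitor of metalloproteinases, had 597.8 and 219.3 in siRNA A cells, 486.0 and 236.6 in siRNA B cells and 690.3 and 746.4 in control cells, a fold change of -0.996 (limma adjusted p = 0.636, and 0.00334 with the block) that was -0.65 without siRNA A replicate 2 and -0.40 without replicate 2 of both siRNAs.

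Of 17 growth plate signalling genes, 10 were tested, 5 with positive and 5 with negative fold changes (median -0.05). PTH1R, the receptor for parathyroid hormone related protein, passed with the block (limma adjusted p = 0.589, and 0.0291 with it) and not with the block and median centring (limma adjusted p = 0.0764). Its signal was 28.0 and 25.6 in siRNA A cells, 21.3 and 6.7 in siRNA B cells and 51.1 and 48.5 in control cells. With siRNA B it was not above background, at least 1.99-fold lower than in control (limma adjusted p = 0.196).

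**Figure D4:**
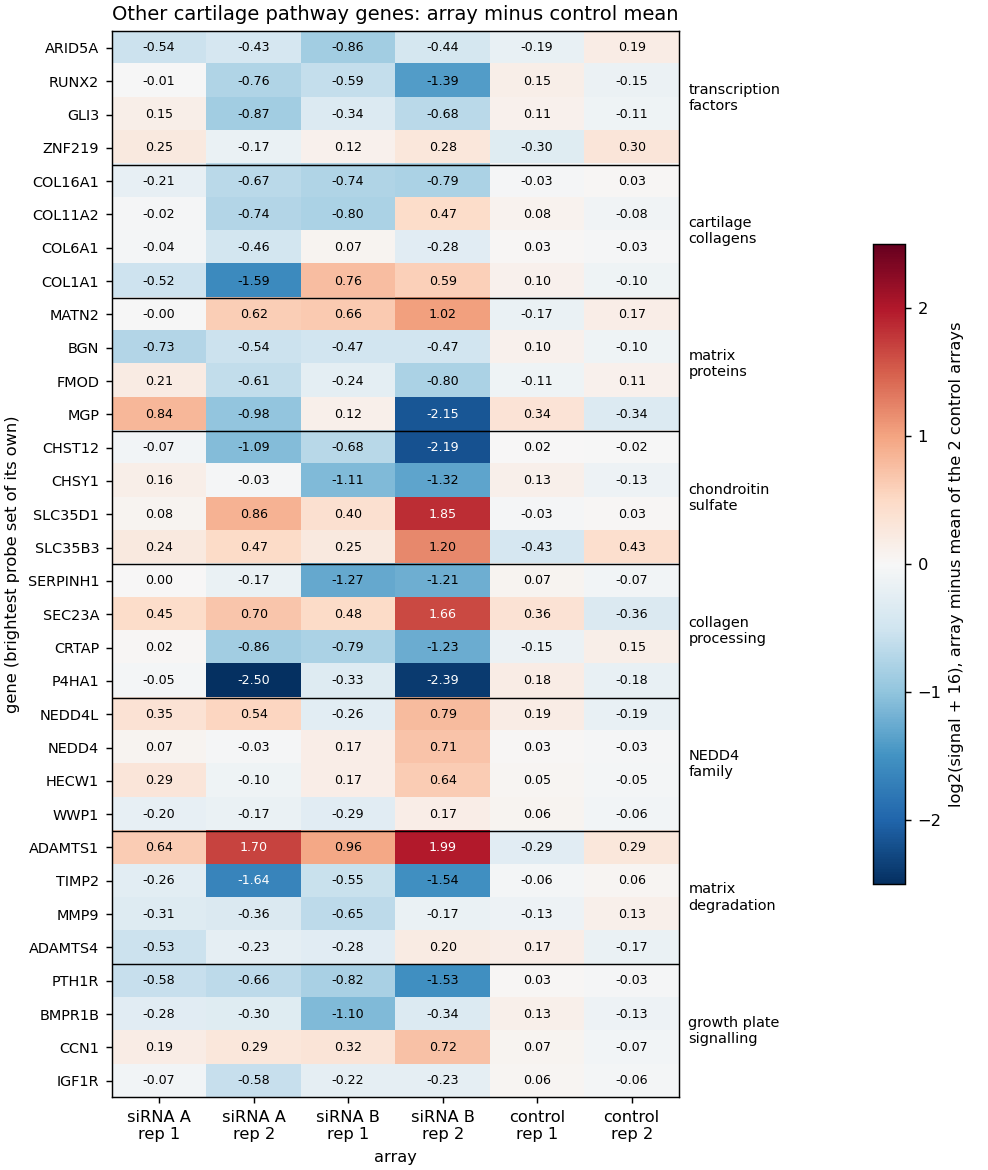
Log2(signal + 16) of each array minus the mean of the 2 control arrays (cells and colour) for the 4 genes of each of the 8 lists with the smallest unadjusted p for both siRNAs (rows), on the 6 arrays (columns). P4HA1, TIMP2 and CHST12 are lowest on replicate 2 of both siRNAs, ADAMTS1 is positive on all 4 siRNA arrays, and CHSY1 and SERPINH1 are low with siRNA B and near 0 with siRNA A.

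The cells had the markers of luminal prostate cancer and few of those of cartilage. Of 10 luminal markers with a probe set of their own, all 10 were above background on every array, among them KLK3, KLK2, TMPRSS2, ERG and FOXA1. Of 12 chondrocyte markers, COL2A1 alone was above background on every array, and 7 were above it on none: COL9A1, MATN3, HAPLN1, COMP, CNMD, EPYC and CHAD. The summed signal of the chondrocyte markers was 226 to 256 with siRNA A, 184 to 258 with siRNA B and 211 to 262 with control siRNA.

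Of 10 markers of fibroblasts and stroma, COL1A1 and LUM were above background on every array and 6 were on none, among them COL1A2, COL3A1, DCN and PDGFRA. Their summed signal was 435 to 761 with siRNA A, 1025 to 2311 with siRNA B and 382 to 566 with control siRNA. LUM, the small proteoglycan lumican, had signals of 261.6 and 661.7 in siRNA A cells, 702.1 and 2018.8 in siRNA B cells and 155.0 and 385.4 in control cells. The part of these levels in the member values was not tested.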

How the data were processed

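The deposited values are the authors' array intensity per probe set on a linear scale, made with MAS5 per the submitters' processing notes; neither its version nor its scaling target is given in the sources at hand, and the deposited scaling was kept. Signals were used as log2(signal + 16), so a fold change understates the change of dim genes. After 62 control probe sets were left out, the 27307 with a mean at or above the median of all probe sets (signal 21.96) went into limma 3.58.1 (R 4.3.3): lmFit on 3 groups over 6 arrays (3 residual degrees of freedom), eBayes with trend, two-sided, Benjamini-Hochberg over all of them, called at an adjusted p below 0.05. The procedure was tested on simulated data.

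Per-array values are printed for member probe sets above background in some group and ranges for most others; COL27A1 225292_at, ACAN 217161_x_at, PLOD1, PLOD2 and LUM were added after their values were seen. List genes were named by unadjusted p for both siRNAs, up to 4 a list, each gene read from its brightest probe set. The members and lists were chosen with earlier results of these data known. Replicate numbers recur in every group, and the labels tie no number to a culture or day. Replicate 2 minus replicate 1 correlated over tested probe sets at 0.589 between siRNA A and siRNA B, 0.147 between siRNA A and control and 0.145 between siRNA B and control, each over 0.1, so the fit with the replicate block is given beside the unpaired fit, which every result comes from first, wherever it changes a call. The block takes that change as equal in all groups, and its p-values may be too small. The eBayes step moderates each probe set's spread by that of all tested probe sets. A p with the block therefore does not rest on that probe set's own spread alone. The number of arrays limits the precision.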

Additional observations from a re-analysis of the deposited data

Results flagged for a closer look

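COL1A1, a chain of type I collagen and a member of the list of other cartilage collagens, had opposite differences with the 2 siRNAs. Its signal was 82.5 and 30.9 in siRNA A cells, 222.9 and 195.7 in siRNA B cells and 135.4 and 115.0 in control cells, so both siRNA A arrays were below and both siRNA B arrays above the control arrays. The log2 difference of siRNA A minus siRNA B was -1.73 (limma adjusted p = 0.0922, and 8.81e-08 with the replicate block).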

How the results depend on the processing

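The count of member probe sets called was 0 in each of the 4 comparisons, and it changed under the following alternatives. With the replicate block it was 1 for both siRNAs against control, 1 for siRNA A, 2 for siRNA B and 1 for siRNA A against siRNA B. At an unadjusted p below 0.05 it was 1, 1, 2 and 2 in the same order. The shares of all tested probe sets for these are given above with each comparison. With the block and median centring together it was 1 for both siRNAs (COL27A1 225293_at), where 2.32% of all tested passed. For siRNA B it was then 1 (COL9A3), where 6.01% did. Leaving out replicate 1 or replicate 2 of both siRNAs joined the remaining siRNA arrays as 1 group, unlike the main fit. Without replicate 1 of both, 1 of 15 member probe sets passed, COL27A1 225293_at, where 3.49% of all tested did. Without replicate 2 of both, 0 of 15 passed. Leaving out 1 array left a lone array in its group, so only fold changes are given and counts of calls are left out. Without siRNA B replicate 1, that of COL9A3 was -1.90 for siRNA B and 1.84 for siRNA A minus siRNA B. In these COL27A1 and COL9A3 results the siRNA arrays left in the reduced groups were below background. The other alternatives (log offsets, 3 other normalizations, filters, 1 probe set a gene, other eBayes settings, only the compared groups, the siRNA arrays as 1 group and an adjusted p below 0.1) called 0. COL9A2 stayed above and COL27A1 225293_at and XYLT1 below control on all 4 siRNA arrays after quantile normalization, median centring and scaling to a common trimmed mean. ACAN joined the lower ones in all 3 of these and MATN4 after quantile normalization and the trimmed mean. The share of all tested probe sets with these orders was not computed under the 3 normalizations. As deposited it was 4.75% for the higher and 10.9% for the lower order. With background at the 99th percentile 6 member probe sets, and with it at the median of all probe sets 8, were above it on all 6 arrays, against 8 as reported. Where leaving arrays out changed a call, the cause was not tested. Signal over background limits ACAN, CHST11, MATN4, COL27A1 and COL9A3, whose tested probe sets were not above it in every group.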
